A study of Mus musculus with 8 samples.

Results

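The 9 genes described here are the inflammatory CC chemokines Ccl2, Ccl3, Ccl4, Ccl5, Ccl6, Ccl7 and Ccl9 and the receptors Ccr1 and Ccr2. They were chosen by symbol, as 9 of the 27923 genes in every table. No cut on their values was used, but earlier results of these data were known. Messenger RNA was counted in single cells by Seq-Well, a microwell method in which each bead tags the transcripts of a cell with a cell barcode and with unique molecular identifiers (UMIs), in 2 lung tumors from 2 mice. Both mice were chimeras made from embryonic stem cells of the KP lung tumor model, with floxed p53 among its alleles, on a C57BL/6 background. All tumors, and so every group, came from Cre delivered to the airways by an adenovirus whose SPC promoter acts in alveolar type II cells. Cells at the healthy tissue border of each tumor had been marked by light with the photocaged dye calcein NVOC and sorted. They gave 1 border library per tumor (Border Tumor 1 and Border Tumor 2). Cells that were not photoactivated gave 3 arrays per tumor (Whole Tumor 1 and Whole Tumor 2), which are technical arrays of 1 tumor. The p-values below therefore measure only the spread between arrays, a border has no replicate of its own, and tumor and mouse cannot be told apart. Both borders were photoactivated and sorted for the dye, and no Whole array was photoactivated. Location and this handling thus cannot be told apart in any border comparison.

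Chemokines are small secreted proteins that guide white blood cells, and the CC family is named for a pair of adjacent cysteines. Their receptors are G protein-coupled receptors that signal through inhibitory G proteins. Ccr1 is carried by neutrophils, monocytes and macrophages in mice and binds Ccl3, Ccl5, Ccl6, Ccl7 and Ccl9, while Ccr2 binds Ccl2 and Ccl7 and brings monocytes out of the bone marrow and into inflamed tissue. Ccl3 and Ccl4 (MIP-1α and MIP-1β) are made by activated myeloid cells and lymphocytes. Ccl6 and Ccl9 are found in rodents and are made mainly by macrophages and other myeloid cells.

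The 8 libraries held 405627 to 2029200 UMIs and 390 to 686 barcodes, and the median barcode had 589 UMIs in Whole Tumor 2 replicate 2 and 1134 to 2391 in the other 7 libraries. Of 4343 barcodes, 3894 had at least 200 genes and were used. Only 10 barcode sequences were found in more than 1 library, in 56 of the barcodes used. Each barcode was put in the cell class of which it held the largest share of marker genes, with at least 2 markers found and none of the 9 genes used as a marker. The largest classes were neutrophil-like (1574 barcodes, with S100a8, S100a9 and G0s2 as leading genes), satellite-rich (747 barcodes of low depth with many satellite repeat transcripts), C1q+ macrophage-like (281), epithelial or tumor-like (216), B-like (159) and alveolar macrophage-like (107). Smaller classes included T-like (68), dendritic-like (53), monocyte-like (38), NK-like (36) and fibroblast-like (33), and 304 barcodes were left unnamed. Levels are given as UMIs per 1000000 UMIs of the barcodes summed (CPM). UMIs of these 3′ tags were not scaled to transcript length. Fewer cells of a type and less RNA per cell cannot be told apart in a sum over a library. A level per class does not depend on how many barcodes the class has in a library. It is still relative to the UMIs of the class, and it can move with the makeup of subsets within the class. Free RNA in the wells can place UMIs in barcodes of cells that do not make a gene, so B-like barcodes, which should lack most of these genes, are given as a background. No B-like barcode came from Border Tumor 1 or Whole Tumor 1 replicate 1, so this background does not cover those libraries.

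In the mouse genome (GRCm38, GENCODE vM21) the 7 ligand genes lie on chromosome 11 and both receptor genes on chromosome 9, and all 9 are protein-coding. Ccl2 is at chr11:82035571-82037453 on the plus strand and Ccl7 at chr11:82045712-82047525, 8.26 kb further on. On the minus strand lie Ccl5 (chr11:83525778-83530518), Ccl9 (chr11:83572919-83578636), Ccl6 (chr11:83587882-83593087) and Ccl3 (chr11:83647844-83649355), and Ccl4 (chr11:83662584-83664683) is on the plus strand, 13.2 kb from Ccl3. Ccr1 (chr9:123962124-123968692, minus strand) and Ccr2 (chr9:124101950-124113557, plus strand) are 133 kb apart. An antisense gene overlaps Ccl2 (Gm17268) and another overlaps Ccl6 (E230016K23Rik), and the sources used here do not state whether counting used the strand. The 250 bases before the start of 3 genes are printed because Ccl6 and Ccl9 are neighbours that share the macrophage-like and monocyte-like classes as sources, and Ccl3 is the most abundant of the 9 genes in neutrophil-like barcodes. They are from RefSeq (GRCm38.p6), in the direction of the gene, at chr11:83593088-83593337, chr11:83578637-83578886 and chr11:83649379-83649628, all on the minus strand. The Ccl6 and Ccl9 windows reach the GENCODE starts given above, while the Ccl3 window ends short of the GENCODE start of Ccl3. Capitals mark the longest stretch shared by the Ccl6 and Ccl9 windows, and in Ccl3 the letters TATAA or GAGGAA on either strand.
Ccl6: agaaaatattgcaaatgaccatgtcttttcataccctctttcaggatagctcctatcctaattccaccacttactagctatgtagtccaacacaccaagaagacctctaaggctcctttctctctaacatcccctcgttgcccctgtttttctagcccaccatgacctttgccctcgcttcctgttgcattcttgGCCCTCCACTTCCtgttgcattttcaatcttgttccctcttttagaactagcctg
Ccl9: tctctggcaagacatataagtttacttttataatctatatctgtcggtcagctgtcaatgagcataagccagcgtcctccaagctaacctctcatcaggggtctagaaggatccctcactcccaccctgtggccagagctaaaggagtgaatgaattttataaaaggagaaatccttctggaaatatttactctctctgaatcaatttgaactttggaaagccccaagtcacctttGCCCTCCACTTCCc
Ccl3: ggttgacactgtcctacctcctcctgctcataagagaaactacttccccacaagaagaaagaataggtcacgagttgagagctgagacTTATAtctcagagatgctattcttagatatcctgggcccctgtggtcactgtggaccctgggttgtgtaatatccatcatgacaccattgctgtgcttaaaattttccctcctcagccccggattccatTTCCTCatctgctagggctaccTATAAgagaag

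The stretch GCCCTCCACTTCC, whose first base is 55 bases before the Ccl6 start and 14 before the Ccl9 start, was found in 3 of 32851 RefSeq promoters (0.00913%). The other pairs among the 5 members with a promoter sequence (Ccl3, Ccl6, Ccl9, Ccr1 and Ccr2) shared at most 9 bases. TATAA, searched on both strands, was in the windows of Ccl3, Ccl9 and Ccr2 and in 22.8% of all promoters. GAGGAA, the core of PU.1 sites, was in those of Ccl3 and Ccr1 and in 23.3% of all promoters. TGANTCA (AP-1) was in the window of Ccl9 and in 6.75% of promoters, and the kappaB consensus was in those of Ccl9 and Ccr1 and in 7.25%. These letters are descriptions of the windows and were not tied to any factor. The windows of Ccl2, Ccl4, Ccl5 and Ccl7 were not analysed here.

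**Figure D1:**
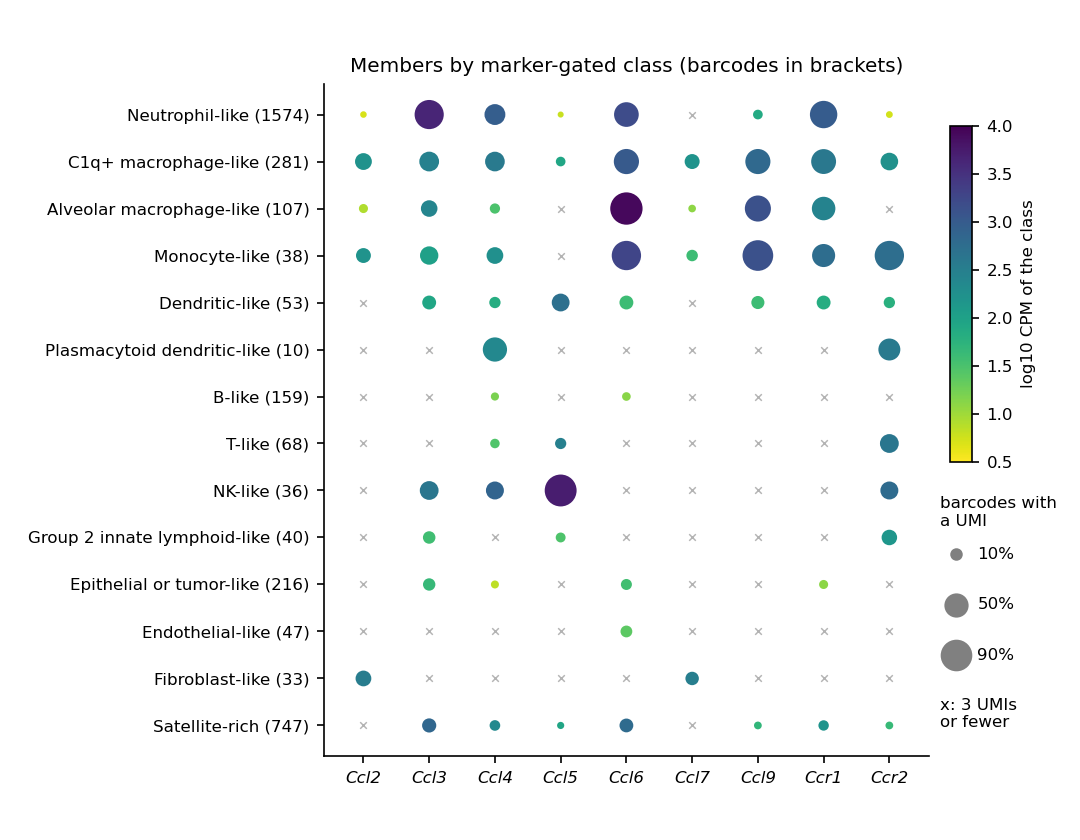
Level of the 9 genes in 14 named cell classes. Colour is the level on a log10 scale of CPM, dot size is the percent of barcodes with at least 1 UMI, and a cross marks a gene with at most 3 UMIs in a class. Ccl3, Ccl4 and Ccr1 stand high in the neutrophil-like class (4408, 919 and 984 CPM), Ccl6 in the alveolar macrophage-like class (8450 CPM) and Ccl5 in the NK-like class (5240 CPM).

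Ccl3 was mostly a neutrophil-like transcript. Neutrophil-like barcodes held 16918 Ccl3 UMIs, 89.8% of all Ccl3 UMIs, at 4408 CPM (95% Poisson interval 4342 to 4475, which like all intervals here covers counting error only). Among the named classes the next levels were 708 CPM in satellite-rich, 417 in NK-like and 298 in C1q+ macrophage-like barcodes. Unnamed barcodes are not ranked here. The neutrophil-like level thus stood far above that of any other named class. At least 1 Ccl3 UMI was found in 75.3% of neutrophil-like barcodes (exact 95% interval 73.1 to 77.5), in 31.3% of C1q+ macrophage-like and in 0.629% of B-like barcodes. The median depths of these classes were 2145, 3852 and 1965 UMIs, and after thinning each barcode to 500 UMIs the shares were 59.3, 13.2 and 0%. In the 68 T-like barcodes no Ccl3 UMI was found, which allows a level of up to 17.6 CPM at a floor of 3 UMIs. Border Tumor 1 carried much of the class level, and without this library the neutrophil-like level of Ccl3 was 2676 CPM. The 253 CPM of the alveolar macrophage-like class was 77.7 CPM without the 4 barcodes of Border Tumor 1, whose own level was 12587 CPM.

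Ccl4 followed Ccl3 in neutrophil-like barcodes and, with all libraries pooled, stood above it in C1q+ macrophage-like ones. Neutrophil-like barcodes held 79.7% of Ccl4 UMIs at 919 CPM (493 CPM without Border Tumor 1), and C1q+ macrophage-like barcodes held 11.3% at 369 CPM. NK-like barcodes reached 773 CPM, while alveolar macrophage-like (31.1 CPM) and B-like barcodes (15.8 CPM) were low. The ratio of Ccl3 to Ccl4 UMIs was 4.80 in neutrophil-like barcodes, with 3.77 to 7.67 over the 8 libraries, and 0.809 in C1q+ macrophage-like barcodes. The C1q+ ratio is pooled, with 133 of the 281 barcodes from Border Tumor 2, and its range over libraries is not given here. Of Ccl4-positive neutrophil-like barcodes, 92.5% also held Ccl3, against 75.3% of all neutrophil-like barcodes. Both shares are pooled over libraries that differ in Ccl3, with Border Tumor 1 the highest. Shares within a library are not given here. Ccl3 UMIs were unevenly spread among neutrophil-like barcodes, since the tenth of barcodes with the most held 44.9% of them, from 31.5% in Border Tumor 1 to 55.8% in Whole Tumor 1 replicate 2.

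Neutrophil-like and macrophage-like sums, the latter as the mean of 3 macrophage-like classes of which the C1q+ and alveolar ones are described here, were compared within libraries with the quasi-likelihood test of edgeR, its p-values adjusted by Benjamini-Hochberg over 6562 genes. The question was which class holds each ligand and receptor. All 9 members passed the filter on low counts, and 7 passed the test, where 39.5% of all genes tested did (21.5% higher and 18% lower). The members' median log2 difference was -0.81, against 0.12 over all genes. Ccl3 was higher in neutrophil-like sums by 4.62 on the log2 scale (SE 0.29, adjusted p = 8.24e-26), Ccl4 by 3.49 (SE 0.31, adjusted p = 2.13e-17) and Ccr1 by 1.95 (SE 0.25, adjusted p = 3.62e-10). The other members that passed were lower, Ccl9 at -3.40 (SE 0.33, adjusted p = 1.74e-15), Ccl7 at -2.97 (SE 0.70, adjusted p = 0.000307), Ccl2 at -1.75 (SE 0.56, adjusted p = 0.00823) and Ccl6 at -0.81 (SE 0.30, adjusted p = 0.0216). The call on Ccl6 was lost without the filter (-0.62, adjusted p = 0.0828), without doublets (-0.63, adjusted p = 0.0787) and without the library term (-0.44, adjusted p = 0.383). The calls on Ccl2 and Ccl7 were lost without Whole Tumor 2 replicate 3 (-1.35 and -1.22, adjusted p = 0.214 and 0.975) and with DESeq2 (adjusted p = 0.175 and 0.266), and that on Ccl2 also without the library term (adjusted p = 0.061). Ccl5 (1.61, adjusted p = 0.148) and Ccr2 (-0.91, adjusted p = 0.414) did not pass. TMM, the scaling of libraries by edgeR, raised the differences of this comparison by 0.23 on the log2 scale, and without it no member changed direction, while the share of called genes that were higher went from 54.5 to 41.3%.

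Ccl6 was the most abundant of the 9 genes in the alveolar macrophage-like class. Its level there was 8450 CPM, with a UMI in 94.4% of barcodes (exact 95% interval 88.2 to 97.9) and in 82.9% after thinning, against 3.14% and 1.92% of B-like barcodes. By library, in those with at least 10 barcodes of the class, the alveolar level was 6622 CPM in Border Tumor 2 and 8419, 8716 and 8976 CPM in the arrays of Whole Tumor 2. These 4 values lay above every library's value in the other classes described next. C1q+ macrophage-like barcodes ran from 398 to 1797 CPM over 6 libraries and neutrophil-like ones from 726 to 2753 over 8, so these ranges overlapped. Monocyte-like barcodes were at 1892 CPM in all. By UMIs rather than level, neutrophil-like barcodes held 42.6% of Ccl6 and alveolar macrophage-like ones 28.3%. Without Border Tumor 1 this order turned, with 3285 Ccl6 UMIs in neutrophil-like and 4075 in alveolar macrophage-like barcodes.

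Ccl9, the neighbour of Ccl6, was a macrophage-like and monocyte-like transcript with little in neutrophil-like barcodes. Its level was 1355 CPM in monocyte-like, 1334 in alveolar and 657 in C1q+ macrophage-like barcodes. Over libraries the alveolar class ran from 749 to 1555 CPM and the C1q+ class from 398 to 1217. These ranges overlapped, and the order of these macrophage-like classes did not exceed their spread. Neutrophil-like barcodes were at 74.0 CPM, with a UMI in 4.70% of them, and B-like barcodes at 2.63 CPM. In the C1q+ class, 108 barcodes held both Ccl6 and Ccl9.

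Ccl2 and Ccl7, the ligands of Ccr2, were found mainly in C1q+ macrophage-like barcodes. That class held 63.5% of Ccl2 UMIs (162 CPM, in 21.4% of barcodes) and 73.4% of Ccl7 UMIs (158 CPM, in 16% of barcodes). No B-like barcode held either gene, which for 159 barcodes allows a level of up to 7.89 CPM. After thinning, the shares of C1q+ barcodes were 5.71 and 3.21%, near the level of 1 UMI. Both genes were found together, since 25 barcodes held both, which is 55.6% of the Ccl7-positive ones. The fibroblast-like class had higher levels, 339 CPM for Ccl2 and 325 CPM for Ccl7, but these rested on 47 UMIs in 6 barcodes and 45 UMIs in 4 barcodes, of which 1 held 30. Neutrophil-like barcodes were at 5.21 CPM for Ccl2 and held 3 Ccl7 UMIs.

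Ccl5, a ligand made by cytotoxic lymphocytes that binds Ccr1, was highest in NK-like barcodes. The level was 5240 CPM, with a UMI in 91.7% of the 36 barcodes (exact 95% interval 77.5 to 98.2) and 44.5% of all Ccl5 UMIs. In the 2 libraries with at least 10 NK-like barcodes it was 4433 CPM (Whole Tumor 2 replicate 2) and 4843 CPM (replicate 3). Dendritic-like barcodes followed at 534 CPM and T-like barcodes at 312 CPM, the latter from 53 UMIs in 5 barcodes. C1q+ macrophage-like barcodes held 114 UMIs in 13 barcodes, neutrophil-like barcodes 24 UMIs in 4 and B-like barcodes were at 5.26 CPM. NK-like sums were set against T-like sums in the fit of all classes, where 0.457% of genes passed (0.305% higher and 0.152% lower). There, 3 members passed, all higher in NK-like sums, which were Ccl5 (4.34, SE 0.78, adjusted p = 0.000365), Ccl4 (4.30, SE 0.81, adjusted p = 0.000753) and Ccl3 (adjusted p = 0.00205, with no Ccl3 UMI in T-like barcodes). The NK-like side rests on Whole Tumor 2 replicates 2 and 3, and without replicate 3 none of the 3 passed (adjusted p = 0.072, 0.787 and 1 for Ccl5, Ccl4 and Ccl3). Without the library term Ccl5 (adjusted p = 0.244) and Ccl4 (adjusted p = 0.0652) did not pass, nor did Ccl5 with DESeq2 (adjusted p = 0.711). The lone sum that remained was assumed to vary like the others. Called genes were 66.7% higher, and 82.9% higher without TMM, which shifted the comparison by -0.25.

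The receptor Ccr1 was held by the same class that held its ligand Ccl3. Neutrophil-like barcodes had 73.9% of Ccr1 UMIs at 984 CPM, with a UMI in 65.7% of barcodes (35.1% after thinning). Monocyte-like barcodes were at 582 CPM, and C1q+ and alveolar macrophage-like barcodes were at 400 and 273 CPM. Over libraries these macrophage-like classes ran from 274 to 491 and from 153 to 454 CPM, which do not separate. Dendritic-like (68.3 CPM) and epithelial or tumor-like barcodes (12.9 CPM) were low, and none of the 159 B-like barcodes held a Ccr1 UMI (exact 95% upper limit 2.29%, which limits barcodes with a UMI at this depth and not cells that express the gene). Ccl3 and Ccr1 were found in the same barcode in 823 neutrophil-like barcodes, 79.6% of the Ccr1-positive and 69.4% of the Ccl3-positive ones. Of all 1574 neutrophil-like barcodes, 1186 held Ccl3 and 1034 held Ccr1, so both genes were common in the class. These counts are pooled over libraries that differ in depth and in both genes. Whether the 2 genes go together within a library was not tested.

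Ccr2 was held by monocyte-like, NK-like, T-like and plasmacytoid dendritic-like barcodes and, at a lower level, by C1q+ macrophage-like barcodes. Monocyte-like barcodes were at 565 CPM, with a UMI in 76.3% (exact 95% interval 59.8 to 88.6, 26.3% after thinning), T-like barcodes at 429 CPM and C1q+ macrophage-like barcodes at 174 CPM. The C1q+ value leans on Border Tumor 2, which had the highest C1q+ level and 133 of the 281 C1q+ barcodes. The T-like level ran from 266 to 685 CPM over 3 libraries, which takes in the monocyte-like level. The NK-like level was 618.3 CPM (95% Poisson interval 442 to 842) but came from 40 UMIs, of which 1 barcode held 24, and that of the 10 plasmacytoid dendritic-like barcodes was 376 CPM from 18 UMIs. Neutrophil-like barcodes were at 5.47 CPM with 21 UMIs in all, the alveolar class had 1 UMI and B-like barcodes had none. Between monocyte-like and macrophage-like sums, Ccr2 was the member that passed, where 0.899% of all genes did (log2 difference 4.54, SE 0.68, edgeR adjusted p = 4.48e-06). The monocyte-like side is 1 library, Whole Tumor 2 replicate 3 with 24 barcodes, which is assumed to vary like the others, so the call has no check without that library.

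**Figure D2:**
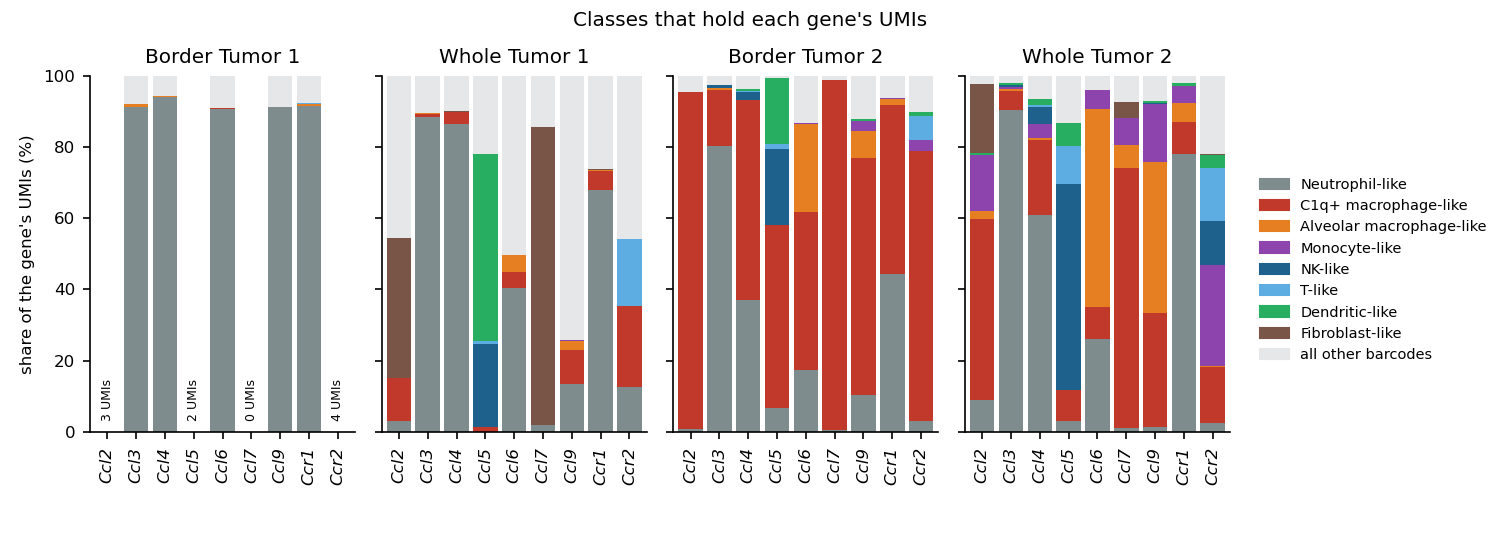
Share of each gene's UMIs held by each cell class, as stacked bars in percent, for the border and the summed Whole Tumor arrays of each tumor. Genes with fewer than 20 UMIs in a group are written as text. Ccl3 is mostly neutrophil-like in all 4 groups (80.1 to 91.1%), while the source of Ccl4, Ccl6 and Ccl9 differs between them.

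Which class held most of a ligand differed between tumor and region for 6 of the 7 ligands. Ccl3 was the exception, with 91.1% of its UMIs in neutrophil-like barcodes in Border Tumor 1, 88.4% in Whole Tumor 1, 80.1% in Border Tumor 2 and 90.3% in Whole Tumor 2. For Ccl4 the neutrophil-like share was 94.0, 86.5, 37.1 and 60.8% in the same order, and C1q+ macrophage-like barcodes held 56.0% in Border Tumor 2. These shares move with the number of barcodes of each class in a library as well as with the level per class. Ccl6 was held by neutrophil-like barcodes in Border Tumor 1 (90.7%), by C1q+ macrophage-like barcodes in Border Tumor 2 (44.3%) and by alveolar macrophage-like barcodes in Whole Tumor 2 (55.7%), and 40.3% was neutrophil-like in Whole Tumor 1. Ccl9 was led by the same classes in these groups, with 91.1% (102 of 112 UMIs) neutrophil-like in Border Tumor 1, 66.3% C1q+ in Border Tumor 2 and 42.6% alveolar in Whole Tumor 2. The macrophage-like ligands had few other holders in Border Tumor 1, which had 7 macrophage-like barcodes in all.

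Ccl2 and Ccl7 had most of their UMIs in C1q+ macrophage-like barcodes in Border Tumor 2 (94.7 and 98%) and Whole Tumor 2 (50.6 and 73.1%). In Whole Tumor 1 fibroblast-like barcodes held 41 of 49 Ccl7 UMIs (83.7%), and of 33 Ccl2 UMIs 39.4% were fibroblast-like. These are small counts. Ccl5 was led by C1q+ macrophage-like barcodes in Border Tumor 2 (70 of 136 UMIs, 51.5%), dendritic-like in Whole Tumor 1 (52.4%) and NK-like in Whole Tumor 2 (57.7%). The receptor Ccr1 was neutrophil-like by 91.6% in Border Tumor 1, 67.8% in Whole Tumor 1, 44.4% in Border Tumor 2 and 77.9% in Whole Tumor 2, and C1q+ macrophage-like by 47.3% in Border Tumor 2. For Ccr2, Border Tumor 1 held 4 UMIs, Border Tumor 2 was 75.8% C1q+ macrophage-like, and Whole Tumor 2 was spread over monocyte-like (28.4%), C1q+ macrophage-like (15.9%), T-like (14.9%) and NK-like barcodes (12.2%).

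**Figure D3:**
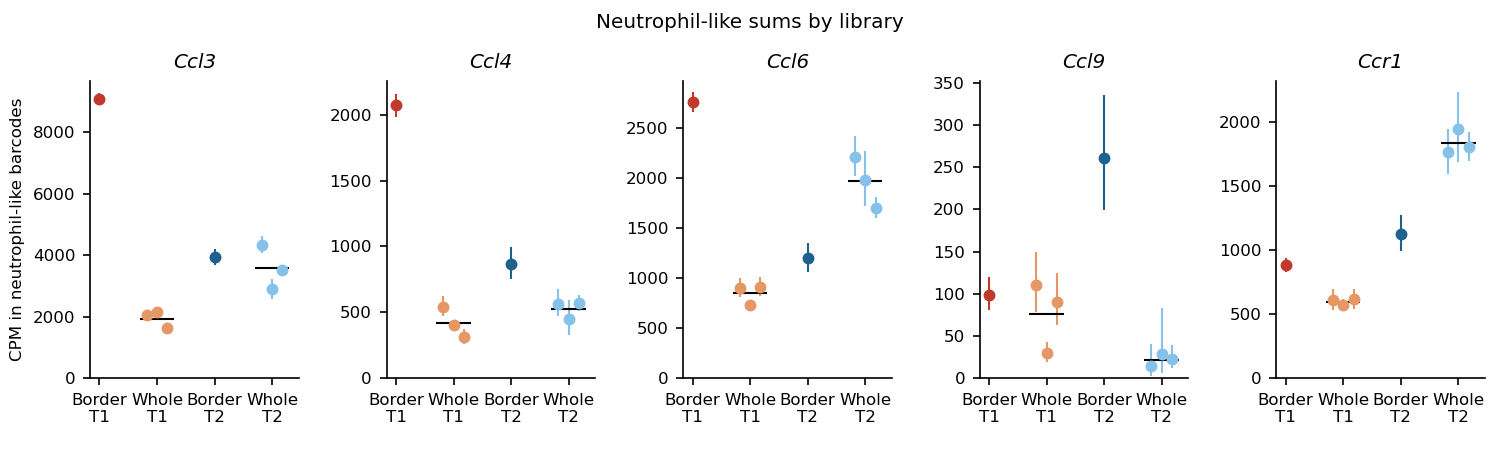
Level of Ccl3, Ccl4, Ccl6, Ccl9 and Ccr1 in neutrophil-like barcodes of each library, in CPM. Points are libraries, vertical lines are 95% Poisson intervals of counting error, and black bars are means of the 3 arrays. Border Tumor 1 stands above the arrays of Whole Tumor 1 for Ccl3 (9099 CPM against 1627 to 2138), Ccl4 and Ccl6.

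Neutrophil-like barcodes of the border of Tumor 1 held more Ccl3, Ccl4 and Ccl6 than those of the whole tumor. Ccl3 was at 9099 CPM in Border Tumor 1 (401 barcodes) and at 2043, 2138 and 1627 CPM in the arrays of Whole Tumor 1 (137, 311 and 144 barcodes). Ccl4 was at 2072 CPM against 542, 401 and 311 CPM. Ccl6 was at 2753 CPM against 899, 726 and 907 CPM. For all 3 ligands the border value lay above all 3 arrays. The border library also had more positive barcodes, 97.3% for Ccl3 against 65.7, 65.9 and 70.1%, at like median depths (2266 UMIs against 2206 to 2566), and after thinning 86.3% against 40.9 to 44.0%. The median barcode held 18 Ccl3 UMIs in Border Tumor 1 and 1, 2 and 2 in the arrays, and 70.8% of the border barcodes held at least 10, against 16 to 19.9%.

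For the border against the whole of Tumor 1, 4 of the 8 members tested passed, all higher at the border, where 8.05% of 6309 genes passed, 6.58% higher and 1.47% lower. The members' median log2 difference was 1.41, against -0.07 over all genes. The log2 differences were 2.84 for Ccl4 (SE 0.26, adjusted p = 9.85e-11), 2.76 for Ccl3 (SE 0.24, adjusted p = 6.01e-11), 2.24 for Ccl6 (SE 0.23, adjusted p = 4.15e-09) and 1.09 for Ccr1 (SE 0.24, adjusted p = 0.00182). The calls on Ccl3, Ccl4 and Ccl6 were kept under all 17 alternatives, among them each neutrophil-like subset on its own. Ccr1, at 881 CPM against 610, 568 and 615 CPM, lost its call without TMM normalization (0.54, adjusted p = 0.0673), with at least 500 genes per barcode (adjusted p = 0.32) and in 2 of the 3 subsets. TMM raised all differences of this comparison by 0.55 on the log2 scale. Without it Ccl3, Ccl4 and Ccl6 were higher by 2.21, 2.30 and 1.69, and the genes that passed turned from 81.7% higher to 15.7% higher. Ccl9 did not pass (98.6 CPM against 110, 29.4 and 89.7 CPM, log2 difference 1.02, adjusted p = 0.117).

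Tumor 2 had another pattern. Ccl3 was at 3948 CPM in Border Tumor 2 (105 barcodes) and at 4334, 2892 and 3506 CPM in the arrays of Whole Tumor 2 (93, 155 and 228 barcodes), and Ccl4 was at 870 CPM against 565, 447 and 568 CPM. The border value of Ccl3 lay within the range of the arrays. Neither gene passed (Ccl3 -0.28, adjusted p = 0.587, and 0.14 without TMM; Ccl4 0.27, adjusted p = 0.627). Ccl6 was lower at the border, at 1196 CPM against 2209, 1979 and 1701 CPM (log2 difference -1.12, SE 0.28, adjusted p = 0.0082), and so was Ccr1, at 1126 CPM against 1764, 1950 and 1808 CPM (-1.12, SE 0.27, adjusted p = 0.00686). Here 3 of 8 members passed where 8.56% of genes did (3.25% higher and 5.31% lower), and the share of called genes that were higher was 38.0% and, without TMM, which shifted the comparison by -0.45, 78.8%. Both calls were lost without the filter (adjusted p = 0.0516 for Ccl6 and 0.0528 for Ccr1) and with at least 500 genes per barcode (adjusted p = 0.488 and 0.469), and that on Ccl6 without TMM (-0.70, adjusted p = 0.0517). Within the Retnlg and Hdc subset alone Ccl6 differed by 0.05 (adjusted p = 0.95) and Ccr1 by -0.67 (adjusted p = 0.275). In unsplit barcodes alone Ccl6 differed by -1.24 (adjusted p = 0.304) and Ccr1 by -0.21 (adjusted p = 0.916). Border Tumor 2 held 30.5% of its neutrophil-like barcodes in the Retnlg and Hdc subset, against 80.6, 65.8 and 82.9% in the arrays.

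Ccl9 was the member that was higher at the border of Tumor 2, at 261 CPM against 13.9, 28.5 and 22.9 CPM (log2 difference 3.15, SE 0.52, adjusted p = 0.000116). The border value came from 60 UMIs in 9 of 105 barcodes and the array values from 3, 3 and 13 UMIs. The call was lost when 3 markers were required of each barcode (0.68, adjusted p = 0.485) and in the Retnlg subset alone (2.61, adjusted p = 0.174). It was kept in unsplit barcodes alone (3.39, edgeR adjusted p = 0.00698), which were 67 of the 105 in Border Tumor 2. Of the 9 barcodes with Ccl9, 4 (44.4%) also held a UMI of the 7 C1q+ macrophage markers, against 13 of the 96 others (13.5%), and their median depth was 3156 UMIs against 1790. Over the 6 Whole arrays the share among barcodes with Ccl9 ran from 0 of 2 to 3 of 7 (42.9%), the latter in replicate 3 of both tumors, and in Border Tumor 1 it was 1 of 26 (3.85%) against 14 of 375 without Ccl9 (3.73%). The C1q+ list stood at 2.83 per 10000 UMIs in neutrophil-like barcodes of Border Tumor 2, with 5 of its 7 genes found and C1qc and Ms4a7 at 0, against 0.666 to 1.37 in the arrays of Whole Tumor 2. Over Tumor 1 it was 0.242 in the border, with C1qa, C1qb and C1qc at 0, and 0.555 to 5.39 in the arrays. The dendritic list of 9 genes stood at 3.87 per 10000 UMIs in Border Tumor 2 and at 0.0825 to 1.11 in the other libraries. Their part in the Ccl9 value was not tested.

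The difference between the tumors was tested as an interaction, in which 5 of 8 members passed, where 11.1% of genes did (7.8% higher and 3.34% lower). Ccl6 (3.36, SE 0.38, adjusted p = 5.17e-08), Ccl3 (3.04, SE 0.39, adjusted p = 4.97e-07), Ccl4 (2.57, SE 0.42, adjusted p = 2.73e-05) and Ccr1 (2.21, SE 0.37, adjusted p = 3.88e-05) had a higher border difference in Tumor 1 than in Tumor 2. Ccl9 had a lower one (-2.13, SE 0.68, adjusted p = 0.0354) that was lost in 8 of 15 alternatives, among them without Whole Tumor 1 replicate 1 (-1.70, adjusted p = 0.0768), without its replicate 3 (adjusted p = 0.0617) and without Whole Tumor 2 replicate 3 (-2.37, adjusted p = 0.0658). Without TMM, which moved this comparison by 1.00 on the log2 scale, the 4 higher values were 2.40, 2.07, 1.59 and 1.24. With at least 500 genes per barcode Ccl3 (2.97, adjusted p = 0.0521) and Ccr1 (1.98, adjusted p = 0.161) did not pass, and in unsplit barcodes Ccl4 (1.10, adjusted p = 0.564) and Ccr1 (1.06, adjusted p = 0.568) did not. The called genes were 70.0% higher with TMM and 12.5% higher without it.

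**Figure D4:**
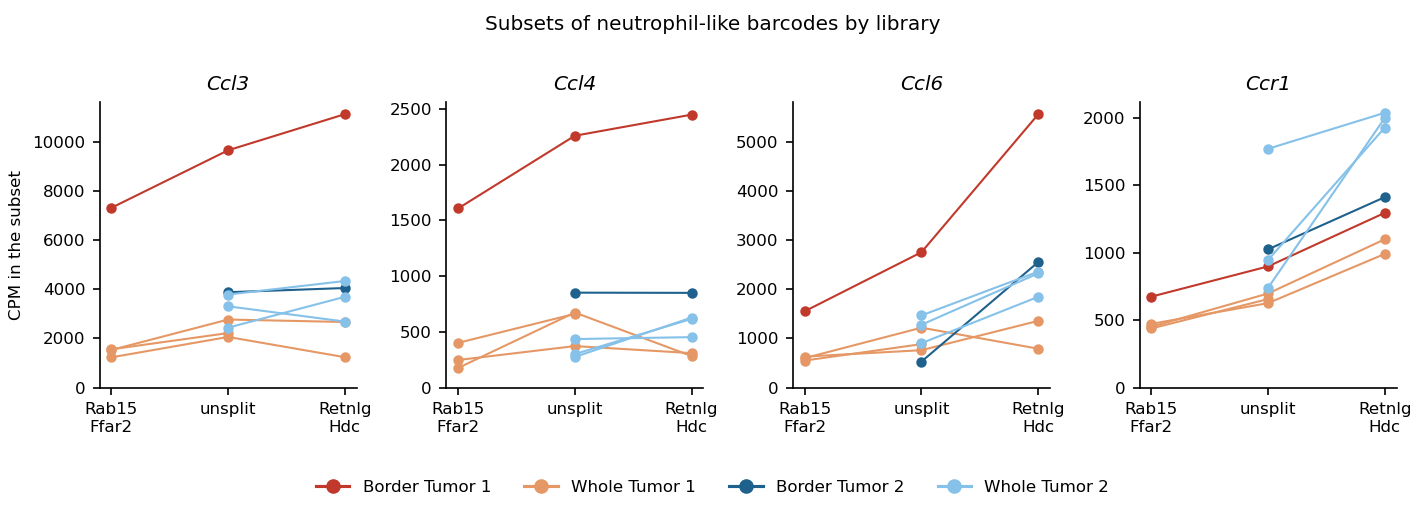
Level of Ccl3, Ccl4, Ccl6 and Ccr1, in CPM, in 3 subsets of neutrophil-like barcodes with at least 10 barcodes in a library. Points are libraries and lines join the subsets of 1 library. Ccl6 and Ccr1 are lower in the Rab15 and Ffar2 subset than in the Retnlg and Hdc subset of the same library, in all 3 libraries that hold both.

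Neutrophil-like barcodes were split by markers into a subset with Rab15, Entpd3 and Ffar2 (304 barcodes), a subset with Retnlg and Hdc (494) and the unsplit rest (776). The Rab15 subset made up 24.4% of neutrophil-like barcodes in Border Tumor 1, 27.7, 35 and 35.4% in Whole Tumor 1 and 5.71, 2.15, 0 and 0% in the border and arrays of Tumor 2. Ccl6 in the Rab15 subset was at 1552 CPM in Border Tumor 1 and at 550, 630 and 600 CPM in Whole Tumor 1. In the Retnlg subset it was at 5553 CPM in Border Tumor 1, at 1356 and 791 CPM in Whole Tumor 1 replicates 2 and 3, at 2550 CPM in Border Tumor 2 and at 2356, 2321 and 1844 CPM in Whole Tumor 2. Within each of the 3 libraries that held at least 10 barcodes of both, the Retnlg subset was higher. Ccr1 was likewise at 675, 473 and 451 CPM in the Rab15 subset and at 1296, 991 and 1100 CPM in the Retnlg subset of the same libraries, Border Tumor 1 and Whole Tumor 1 replicates 2 and 3.

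Over these 3 libraries 4 members could be tested and 2 passed, where 4.25% of 2799 genes did. Both were lower in the Rab15 subset, Ccl6 at -1.42 (SE 0.34, adjusted p = 0.00857) and Ccr1 at -1.33 (SE 0.31, adjusted p = 0.00836). Without Border Tumor 1 neither passed (-0.93 and -1.32, adjusted p = 0.539 and 0.305), and without Whole Tumor 1 replicate 3 Ccr1 did not (-1.34, adjusted p = 0.1). Neither passed without the filter (adjusted p = 0.114 and 0.201) or without the library term (adjusted p = 0.314 and 0.244). Ccl3 (-0.74, adjusted p = 0.179) and Ccl4 (-0.83, adjusted p = 0.199) did not pass. Ccl3 was at 7321 CPM in the Rab15 subset and at 11133 CPM in the Retnlg subset of Border Tumor 1, and at 1532 against 2671 CPM and 1232 against 1238 CPM in Whole Tumor 1 replicates 2 and 3. The called genes were 26.1% higher, and 62.1% higher without TMM, which moved this comparison by -0.32 on the log2 scale.

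Between the whole tumors, neutrophil-like barcodes of Tumor 2 held more Ccl3, Ccl4, Ccl6 and Ccr1. The arrays of Whole Tumor 2 lay above all 3 of Whole Tumor 1 for Ccl3 (2892 to 4334 against 1627 to 2138 CPM), Ccl6 (1701 to 2209 against 726 to 907 CPM) and Ccr1 (1764 to 1950 against 568 to 615 CPM). For Ccl4 the ranges overlapped (447 to 568 against 311 to 542 CPM). In the fit, 6 of 8 members were higher in Tumor 2, where 42.3% of genes passed, 22% higher and 20.3% lower. Ccr1 differed by 2.40 (SE 0.19, adjusted p = 2.25e-13), Ccl6 by 1.99 (SE 0.19, adjusted p = 3.73e-11), Ccl3 by 1.67 (SE 0.19, adjusted p = 4.37e-09) and Ccl4 by 1.15 (SE 0.22, adjusted p = 3.77e-05). Without TMM, which shifted this comparison by 0.83, the values were 1.60, 1.20, 0.87 and 0.34, and the last no longer passed (adjusted p = 0.116). The called genes were 52.0% higher with TMM and 17.0% higher without it. The other members called, Ccl2 and Ccl5, rested on 1 and 0 UMIs in Whole Tumor 1. Ccr1 was kept under all 18 alternatives, while in the unsplit subset alone Ccl3 (0.59, adjusted p = 0.203), Ccl4 (-0.59, adjusted p = 0.331) and Ccl6 (0.51, adjusted p = 0.334) did not pass. In the Retnlg and Hdc subset alone Ccl3 (1.28, adjusted p = 0.00728), Ccl4 (1.41, adjusted p = 0.00669), Ccl6 (1.41, adjusted p = 0.00215) and Ccr1 (1.37, adjusted p = 0.00121) passed, and Ccl9 was lower (-2.60, adjusted p = 0.0476). The neutrophil marker list stood at 296 to 333 per 10000 UMIs in Whole Tumor 2 and at 100 to 115 in Whole Tumor 1, and its part in these differences was not tested.

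**Figure D5:**
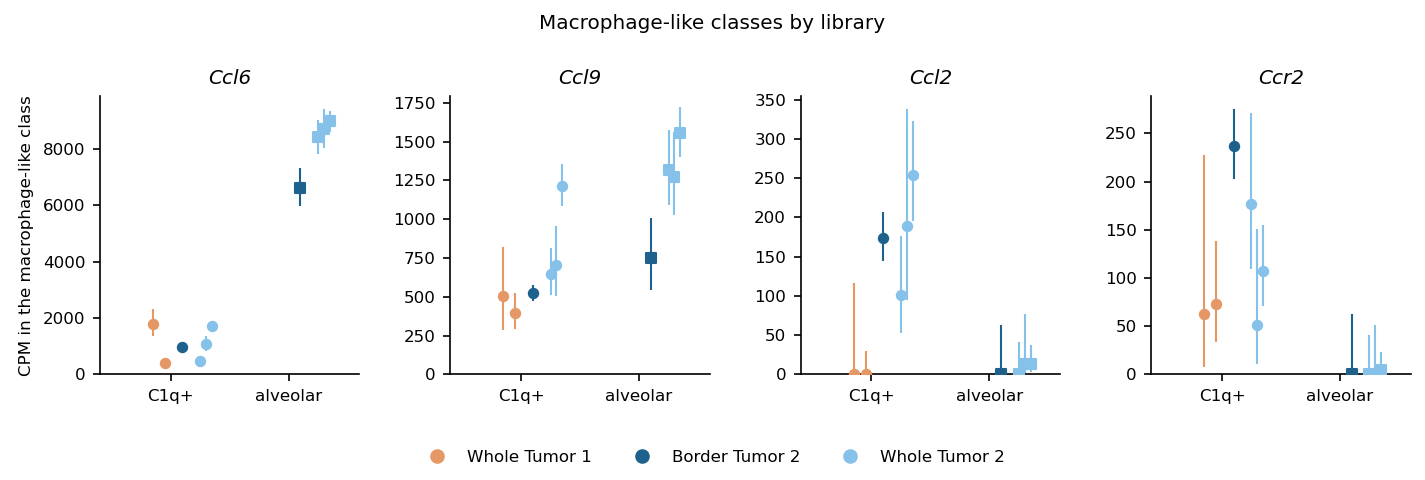
Level of Ccl6, Ccl9, Ccl2 and Ccr2, in CPM, in C1q+ and alveolar macrophage-like barcodes of each library with at least 10 barcodes of the class. Points are libraries, in Whole Tumor 1, Border Tumor 2 and Whole Tumor 2, and vertical lines are 95% Poisson intervals of counting error. Alveolar barcodes hold the most Ccl6 (6622 to 8976 CPM), and Ccr2 is highest in C1q+ barcodes of Border Tumor 2 (237 CPM).

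Macrophage-like barcodes of the border of Tumor 2 held less Ccl6 and more Ccr2 than those of its whole tumor. Ccl6 was at 1516 CPM in Border Tumor 2 (155 barcodes) and at 3978, 5258 and 5096 CPM in Whole Tumor 2 (48, 65 and 89 barcodes). Ccr2 was at 212 CPM against 97.7, 22.4 and 56.8 CPM. In both cases the border lay outside the range of the arrays. The log2 differences were -1.71 for Ccl6 (SE 0.33, adjusted p = 0.00181) and 1.73 for Ccr2 (SE 0.39, adjusted p = 0.0095), 2 of 9 members where 2.94% of 5673 genes passed (1.64% higher and 1.3% lower). The call on Ccr2 was lost with DESeq2 (1.76, adjusted p = 0.172) and without Whole Tumor 2 replicate 3 (1.64, adjusted p = 0.086). Of the border barcodes 133 of 155 were C1q+ and 12 alveolar, whereas Whole Tumor 2 had 28, 34 and 48 C1q+ and 18, 29 and 39 alveolar barcodes. In C1q+ barcodes alone Ccl6 was at 959 CPM against 464, 1063 and 1708 CPM, and neither Ccl6 (-0.29, adjusted p = 1) nor Ccr2 (0.92, adjusted p = 0.896) passed.

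Ccl2 and Ccl7 in macrophage-like barcodes were at 159 and 178 CPM in Border Tumor 2 and did not pass against Whole Tumor 2 (Ccl7 1.13, adjusted p = 0.128). Ccl2 in Whole Tumor 2 was at 55.8, 89.7 and 137 CPM and Ccl7 at 41.9, 52.4 and 114 CPM, against 0, 15.6 and 40.1 CPM and 7.81, 2.23 and 12.0 CPM in Whole Tumor 1. All 3 arrays of Tumor 2 lay above all 3 of Tumor 1 for both genes. Between the whole tumors 7 of 9 members were higher in Tumor 2, where 21.6% of genes passed, 12.7% higher and 8.95% lower. They included Ccl7 (3.66, SE 0.53, adjusted p = 4.77e-06), Ccl2 (2.58, SE 0.48, adjusted p = 0.000153), Ccl6 (1.37, SE 0.22, adjusted p = 1.53e-05), Ccr2 (1.52, SE 0.44, adjusted p = 0.0112) and Ccl9 (0.87, SE 0.21, adjusted p = 0.00249). Ccl4 and Ccl5 were called as well. Whole Tumor 1 held 10, 18 and 8 C1q+ barcodes among 68, 80 and 57 macrophage-like ones. In C1q+ barcodes alone 234 genes passed, among them 3 members, Ccl2, Ccl7 and Ccl9. The share of the genes tested there that passed is not given here. In that test Ccl2 and Ccl7 had no UMI in the 2 arrays of Whole Tumor 1 with at least 10 such barcodes. The calls lost there were Ccl4 (0.64, edgeR adjusted p = 0.588), Ccl5 (2.57, adjusted p = 0.228), Ccl6 (0.35, adjusted p = 0.722) and Ccr2 (0.91, adjusted p = 0.462). With DESeq2 Ccl2 (adjusted p = 0.0875) and Ccr2 (adjusted p = 0.0575) did not pass, nor did Ccl4 and Ccl5. The call on Ccr2 was lost without Whole Tumor 1 replicate 3 (1.18, adjusted p = 0.0666) and without Whole Tumor 2 replicate 1 (1.17, adjusted p = 0.105). Ccl5 reversed without Whole Tumor 2 replicate 3 (-2.78, adjusted p = 0.601), which held all 42 of its UMIs in Whole Tumor 2. Called genes were 58.6% higher, and 47.8% without TMM, which shifted the comparison by 0.12. Ccr1 did not pass, at 382, 262 and 364 CPM in Whole Tumor 2 and 473, 431 and 265 CPM in Whole Tumor 1.

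Of 14 other CC ligands listed, 12 were in the tables and 5 had at least 50 UMIs. Ccl17 (920 CPM) and Ccl22 (3294 CPM), ligands of Ccr4, were highest in dendritic-like barcodes. The levels of Ccl8 (58.5 CPM) and Ccl12 (95.5 CPM), which lie in the same gene cluster as Ccl2 and Ccl7, were highest in C1q+ macrophage-like barcodes. Fibroblast-like barcodes were at 57.7 CPM for Ccl8, so these classes were not separated for that gene. Between the whole tumors in macrophage-like sums, 4 of the 5 were higher in Tumor 2 and Ccl24, an eotaxin, was lower (-3.89), where 12.7% of all genes were higher and 8.95% lower. At the border of Tumor 2, macrophage-like Ccl12 was higher (1.89), where 1.64% of all genes were higher. C1q+ barcodes held 129 of 133 Ccl12 UMIs. They were 133 of 155 macrophage-like barcodes at that border, against 28 of 48, 34 of 65 and 48 of 89 in the arrays. The part of this makeup in the Ccl12 value was not tested. Of 16 other receptors and decoys, 13 were in the tables and 5 had at least 50 UMIs. Ccrl2, an atypical receptor that does not signal as a chemokine receptor, was a neutrophil-like gene, with 11297 of 12786 UMIs in that class at 2943 CPM. In neutrophil-like sums Ccrl2 was higher at the border of Tumor 1 (1.94) and lower at that of Tumor 2 (-1.28), with a difference between tumors of 3.22. Ccr7, which is a marker of the dendritic list, was higher at the border of Tumor 2 (2.62, SE 0.48, edgeR adjusted p = 0.000373). Of 3 tested there 1 was higher and 1 lower, where 8.56% of all genes passed (3.25% higher and 5.31% lower). Of the genes called there 38.0% were higher with TMM and 78.8% without it.

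Of 15 genes of chemokine receptor signalling, 14 were tested between neutrophil-like and macrophage-like sums. There 5 were higher, which were Rac2 (2.25), a GTPase of neutrophil migration, Vav1 (1.80), Grk6 (1.66), Adrbk1 (1.05) and Gnb2 (0.61), and 2 were lower, Rgs1 (-1.39) and Pik3r5 (-0.65). For the border of Tumor 2 Vav1 was higher (1.02), and Rac2 (-1.28), Gnb2 (-1.35), Adrbk1 (-1.07) and Gnai2 (-0.88) were lower. These are 5 of 15, where 8.56% of all genes passed (3.25% higher and 5.31% lower). TMM shifted this comparison by -0.45, with 38.0% of called genes higher and, without it, 78.8%. In neutrophil-like sums none of the 15 passed at the border of Tumor 1, where 8.05% of all genes did. In the difference between tumors 1 was higher, where 7.8% of all genes were higher and 3.34% lower. Between whole tumors 6 were higher and 1 lower, where 22% of all genes were higher and 20.3% lower. In macrophage-like sums none passed at the border of Tumor 2, where 2.94% of all genes did. There, 4 were higher and 1 lower between whole tumors, where 12.7% of all genes were higher and 8.95% lower. The 7 of 14 that passed in the first comparison stand beside 39.5% of all genes.

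Among genes with at least 100 UMIs that were not markers, the likeness of patterns over the 15 classes was measured as Pearson's r of log2(CPM + 10). The points share libraries, and the values are a description. Ccl2 and Ccl7 were each other's closest gene (r = 0.95). Ccl3 was closest to C5ar2 (0.90), Ccl4 to Gm26778 (0.86), Ccl5 to Klrb1b (0.85), Ccl6 to Pstpip2 (0.96), Ccl9 to Clec4a2 (0.97), Ccr1 to Cd33 (0.96) and Ccr2 to Parp8 (0.86). The genes closest to Ccl6, Ccl9 and Ccr1 had higher r than those closest to Ccl3, Ccl4 and Ccr2.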

How the data were processed

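The authors aligned the reads with STAR 2.5.2b to mm10 after bcl2fastq 2.17.1.14 (per the submitters' processing notes) and deposited raw UMI counts, as 1 table of genes by cell barcodes per array. In all 8 arrays the tumor number inside the cell names differs from that of the label. The label was used, since the barcodes counted per tumor and region under the labels are as many as the study's text gives. The members, gene lists and comparisons were chosen with earlier results of these data known, and the rule that assigns barcodes to classes from fixed markers was written after the tables had been seen. Siglecf has no row in the tables. Barcodes with at least 200 genes were kept, and no clustering was used. Doublets called per library (57 barcodes, 1.46%, scanpy 1.11.5) stayed in, with an alternative that drops them. Shares have exact 95% Clopper-Pearson intervals and levels Poisson intervals. UMIs summed per class and library (at least 10 barcodes) were tested with edgeR 4.0.16 (TMM, filterByExpr, the quasi-likelihood F test, and a threshold of 0.05 after Benjamini-Hochberg adjustment) in R 4.3.3, two-sided. Class contrasts used 50 sums with library as a term (29 residual degrees of freedom), and region and tumor contrasts used 1 mean per tumor and region (4 residual degrees of freedom, all from technical arrays). The subset contrast had 2. The study's methods took cells as replicates, which was not done here. The scripts were tested on simulated data. DESeq2 1.42.0 was an alternative. The genes named are the 9 members in every comparison, other CC ligands and receptors with at least 50 UMIs, the members of the signalling list that passed, and the genes closest to each member. Human samples, imaging and flow cytometry were not analysed here. Precision depends on depth, and Whole Tumor 2 replicate 2 was the shallowest library. Some genes and 1 cell class are not reported here.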

Additional observations from a re-analysis of the deposited data

Results flagged for a closer look

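The border difference in neutrophil-like barcodes differed between the tumors by the interaction test for Ccl3 (3.04 on the log2 scale), Ccl4 (2.57), Ccl6 (3.36), Ccl9 (-2.13) and Ccr1 (2.21), with Tumor 1 minus Tumor 2 as the direction. Each border is 1 library, so these values compare single libraries against arrays. The subset makeup also differed, since the Retnlg and Hdc subset was 14.2% of neutrophil-like barcodes in Border Tumor 1 and 5.11 to 9.03% in its arrays, but 30.5% in Border Tumor 2 and 65.8 to 82.9% in its arrays. Within that subset alone the differences were 2.92 for Ccl3, 3.12 for Ccl4 and 2.71 for Ccl6, which passed, and 1.43 for Ccr1 (edgeR adjusted p = 0.0786), which did not.

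The 449 barcodes with fewer than 200 genes, which entered no comparison, held 126612 UMIs, and members were found there above a floor of 3 UMIs (23.7 CPM). They held 102 UMIs of Ccl3, 34 of Ccl4, 36 of Ccl6, 35 of Ccr1, 11 of Ccl5, 11 of Ccl9, 6 of Ccl2 and 6 of Ccr2, and 1 of Ccl7. Whether these are small cells or free RNA was not tested.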

How the results depend on the processing

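Of 40 calls on members, 13 were kept under every alternative run and 27 were lost under at least 1. The kept ones include monocyte-like Ccr2, whose only library could not be left out. Of 1247 member tests under alternatives, 1162 kept their direction and side of the threshold. The cause of the changes below was not tested. With DESeq2 the genes called were 35 (monocyte-like against macrophage-like), 302, 353 and 393 (border of Tumor 1, of Tumor 2 and their difference, neutrophil-like), 60 (border of Tumor 2, macrophage-like, with 1 member) and 761 (whole tumors, macrophage-like, with 3 members). Without TMM they were 1067 (border of Tumor 1), 1505 (difference) and 4116 (whole tumors, neutrophil-like). Without the filter the subset comparison called 65 genes and 0 members, and the border of Tumor 2, neutrophil-like, 331 genes and 1 member. Without doublets the subsets gave 78 genes. With at least 500 genes per barcode the border of Tumor 1 gave 249 genes, that of Tumor 2 216 genes and 1 member, and the difference 295 genes and 3 members.

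In the Rab15 subset alone the border of Tumor 1 gave 264 genes. In the Retnlg subset alone the genes called were 225, 80, 148 and 620 for the border of Tumor 1, of Tumor 2, their difference and the whole tumors, with 0 members in Tumor 2 and 3 in the difference. In unsplit barcodes they were 88, 18, 60 and 387, with 1 member in Tumor 2, 2 in the difference and 1 between whole tumors. C1q+ barcodes alone gave 9 genes and 0 members for the border of Tumor 2 and 234 genes and 3 members between whole tumors, and alveolar barcodes alone 23 genes and 0 members for the border. Reversed values were Ccl6 at the border of Tumor 2 in the Retnlg subset (0.0515), Ccl9 in the difference with 3 markers required (0.58), Ccl4 between whole tumors in unsplit neutrophil-like barcodes (-0.59) and macrophage-like Ccl5 between whole tumors without Whole Tumor 2 replicate 3 (-2.78, with values up to 7.11 when other libraries were left out).

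Leaving out 1 library at a time gave, in members and genes called, 5 to 7 and 2051 to 2828 (neutrophil-like against macrophage-like), 1 and 45 to 112 (monocyte-like), 0 to 3 and 1 to 36 (NK-like), 0 to 3 and 0 to 119 (subsets), 4 to 5 and 311 to 603 (border of Tumor 1), 3 and 325 to 588 (border of Tumor 2), 4 to 5 and 547 to 789 (difference), 5 to 7 and 1757 to 2655 (whole tumors, neutrophil-like), 2 to 3 and 92 to 212 (border of Tumor 2, macrophage-like) and 5 to 8 and 837 to 1228 (whole tumors, macrophage-like).

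Arrays of the tumors share only a number, since the deviations of same-numbered arrays correlated at -0.03 to 0.02. With the array number as a block, 5 members and 2164 genes were called between whole tumors in neutrophil-like sums and 5 members and 984 genes in macrophage-like sums, and Ccl9 in neutrophil-like sums became called (-1.17). Without library as a block the class comparisons gave 5 members and 2572 genes (neutrophil-like), 1 and 73 (monocyte-like), 1 and 22 (NK-like) and 0 and 2 (subsets). Depth limits Ccl2, Ccl7, Ccl5 and Ccr2 outside their main classes, where few UMIs stand behind a value.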
